A study of Mus musculus with 6 samples.

Results

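Described here are 46 genes that encode molecular chaperones and the factors that control them, chosen by gene symbol: heat shock proteins of the cytosol and their co-chaperones (29 genes), mitochondrial chaperones (4), chaperones and disulfide isomerases of the endoplasmic reticulum or ER (8), the heat shock factors (2) and the ER stress sensors and factors (3). All 46 were found among the 23238 gene symbols of the count files, each on a single line. The study compared mouse embryonic stem cells of strain 129/Ola in 2 stable lines derived from cells that the labels call Niwa. EGFP alone was expressed in the control line. The other line expressed EWS-OCT4A, in which EWS, an RNA-binding protein rearranged in Ewing sarcoma, is fused to OCT-4 isoform A and tagged with GFP. There were 3 libraries per line. Both lines grew in stem cell medium with LIF and both received doxycycline at 1 µg/ml, which in these cells lowers endogenous OCT-4, so the control cells carried that treatment too. The labels do not give the promoter of either transgene, whether a line came from 1 clone, or whether separate cultures stand behind the 3 libraries. The p-values therefore measure only the spread between these libraries, which may be technical.

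Chaperones bind unfolded or partly folded proteins and keep them from aggregating. HSP70 proteins bind short stretches of a client under the control of J-domain proteins and nucleotide exchange factors, HSP90 proteins act later on near-native clients such as kinases and receptors, and chaperonins fold actin, tubulin and other clients inside a closed chamber. Heat shock factor 1 (HSF1) drives the inducible genes of the cytosol, while the unfolded protein response, signalled by IRE1, PERK and ATF6, adjusts the genes of the ER. Pluripotent cells are known for high chaperone and chaperonin expression.

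The files hold counts of 3′ transcript tags, with 13239383 to 14935887 counts in the EGFP libraries and 10978025 to 12281444 in the EWS-OCT-4 libraries. By these totals 3 counts stood for 0.201 to 0.273 counts-per-million units (CPM). The CPM of genes given below use the counts of tested genes after scaling, so they differ slightly from that basis. Chaperone genes held 2.74%, 2.76% and 3.18% of all counts in EGFP libraries 1 to 3 and 3.04%, 3.03% and 3.42% in EWS-OCT-4 libraries 1 to 3 (the widest Wilson 95% interval ran from 3.41% to 3.43% and covers counting error only). The ribosomal RNA precursor Rn45s took 5.85% to 6.44% of counts in the EGFP line and 7.36% to 10.5% in the EWS-OCT-4 line. Within each line, libraries 1 and 2 resembled each other more than either resembled library 3: the median absolute log2 difference over the 46 genes was 0.05 between EGFP libraries 1 and 2 against 0.22 between each and library 3, and 0.08 against 0.32 in the EWS-OCT-4 line. The chi-square of counts per degree of freedom was 3.96 and 4.17 between libraries 1 and 2 of a line and 25.3 to 34.2 between each and library 3. Amplified tags are not independent molecules, so a value above 1 does not show that libraries 1 and 2 came from separate RNA samples; they were counted separately because the labels list them so. Marker genes of other cell states also differed between the lines. All 10 stem cell markers passed as higher in the EWS-OCT-4 line, with a summed level of 346 to 429 CPM in the EGFP line and 5141 to 5747 in the EWS-OCT-4 line. All 12 trophoblast markers were lower, with sums of 7155 to 8001 CPM in the EGFP line against 255 to 286 CPM, and Plac1 and Prl3d1 at 0 counts in the EWS-OCT-4 line. In the EGFP line Esrrb and Tdgf1 stayed below 2.48 CPM and Sox2 stood at 4.18 to 12.6 CPM. Nanog, Klf2, Klf4, Zfp42 and Utf1 lay between 14.5 and 62.4 CPM there, and Dppa5a at 159 to 182 CPM. The label of that line as stem cells is thus matched by only part of these markers. Pou5f1, which encodes OCT-4, was at 0.373, 0.912 and 0.650 CPM in EGFP libraries 1 to 3 and at 1.66, 1.94 and 3.02 CPM in EWS-OCT-4 libraries 1 to 3; whether the transgene mRNA keeps the end that is read is not given. Of 8 primitive endoderm markers 2 passed as higher and 3 as lower (summed 108 to 129 against 54.5 to 92.7 CPM). Fibroblast markers summed to at most 17.3 CPM in the EGFP line and 24.9 to 32.8 CPM in the EWS-OCT-4 line, with 2 of 8 higher and 1 lower, and Postn at 0 counts in the EWS-OCT-4 line. These marker levels move with every difference given below, and their part in it was not tested. In such bulk samples fewer cells of a type and less RNA per cell cannot be told apart.

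Chaperone genes differed between the lines in both directions. Of the 46 genes, all of which passed the filter on low counts, 11 were higher and 20 lower in the EWS-OCT-4 line at an adjusted p of 0.05 (edgeR quasi-likelihood test, Benjamini-Hochberg over all 13467 genes tested), and 15 did not pass. The share that passed, 67.4%, was the same as the 67.4% of all tested genes. By direction, 23.9% were higher against 33.3% of all tested genes, and 43.5% were lower against 34.1%. The median log2 difference, EWS-OCT-4 line minus EGFP line, was -0.19 over the 46 genes and 0.00 over all tested genes. Higher genes lay among HSP90 and its co-chaperones (3 of 4), CCT chaperonin subunits (3 of 8), mitochondrial chaperones (3 of 4), the ER isomerases (1 of 8) and the heat shock factors (1 of 2). Lower genes lay in the HSP70 group (5 of 9), the small heat shock proteins (2 of 2), the J-domain proteins (5 of 6), the ER chaperones (4 of 8), the ER stress factors (3 of 3) and the heat shock factors (1 of 2). A difference of at least 2-fold was found for 12 lower and 2 higher genes, where all tested genes gave 23.6% and 21.8%. In 33 genes (71.7%) the libraries of the lines did not overlap, against 72.7% of all tested genes: 12 were higher (26.1%, against 36.0%) and 21 lower (45.7%, against 36.7%). With only the libraries numbered 1 and 2 of each line, 17 genes were higher and 24 lower. Calls over all genes rose in that fit too, to 5092 higher and 5148 lower of 13538 tested.

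**Figure D1:**
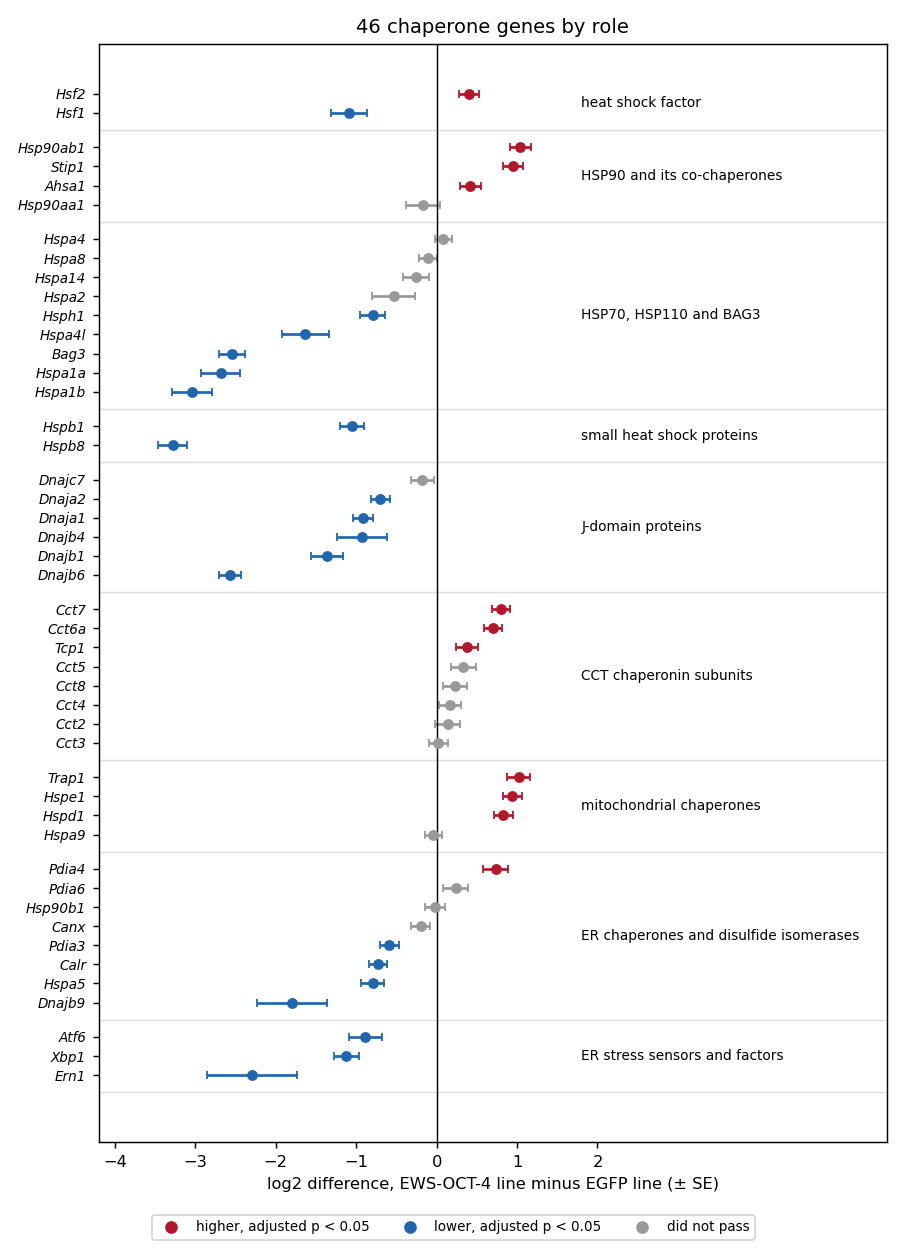
The log2 difference between the lines (horizontal axis, EWS-OCT-4 minus EGFP, with its standard error) for each of the 46 genes, grouped by role. Red points passed the test as higher, blue points as lower, and grey points did not pass; the lowest are Hspb8 (-3.28) and Hspa1b (-3.04) and the highest are Hsp90ab1 (1.04) and Trap1 (1.02).

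The heat shock factors moved in opposite directions. Hsf1, which encodes the main activator of heat shock genes (chromosome 15, 76477422 to 76501913, plus strand, GENCODE M21 on GRCm38), stood at 41.8, 30.9 and 36.4 CPM in EGFP libraries 1, 2 and 3 and at 19.3, 20.1 and 11.8 CPM in EWS-OCT-4 libraries 1, 2 and 3. All EWS-OCT-4 libraries lay below all EGFP libraries, with means of 36.3 ± 5.41 and 17.1 ± 4.56 CPM (SD, n = 3 per line), a 2.13-fold lower level (log2 difference -1.09, standard error or SE 0.22, adjusted p = 0.0014, edgeR). Values of other genes are given in the same order, EGFP libraries 1, 2 and 3 first and EWS-OCT-4 libraries 1, 2 and 3 second, and a value after ± is the SD of 3 libraries. Hsf2, whose product can form mixed trimers with HSF1, was at 57.9, 54.3 and 62.0 CPM in the EGFP line and 73.1, 76.2 and 81.2 CPM in the EWS-OCT-4 line. Its libraries did not overlap either, but the rise was small, 1.32-fold (log2 0.40, SE 0.13, adjusted p = 0.0169). The Hsf2 call was lost without EGFP replicate 1 (adjusted p = 0.063) or EGFP replicate 2 (0.0843).

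The HSP90 genes of the cytosol did not move together. Hsp90ab1 encodes HSP90-beta, the form made constantly in most cells (chromosome 17, 45567775 to 45573271, minus strand). It rose from 5751, 5817 and 7474 CPM in the EGFP libraries to 12764, 12867 and 13539 CPM in the EWS-OCT-4 libraries, 2.06-fold (log2 1.04, SE 0.13, adjusted p = 5.9e-05), and the lines did not overlap. Of the 50-base words in its last 400 bases 9.97% also occur in the annotated gene Gm6368. Hsp90aa1 encodes HSP90-alpha, the form that stress can induce (chromosome 12, 110690605 to 110702728, minus strand). Its values were 4927, 5182 and 7132 CPM in the EGFP line against 4333, 4149.6 and 6841 CPM, which overlap, and the difference did not pass (log2 -0.17, SE 0.21, adjusted p = 0.491). Library 3 was the highest of its line for Hsp90aa1 in both lines. Without EWS-OCT-4 replicate 3 the Hsp90aa1 difference was -0.44 and passed (adjusted p = 0.0363), as it did in libraries 1 and 2 alone (-0.23, adjusted p = 0.000322). Without EGFP replicate 3 it was 0.0051.

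The ratio of Hsp90aa1 to Hsp90ab1 tags within a library does not depend on scaling between libraries. It was 0.857, 0.891 and 0.954 in EGFP libraries 1, 2 and 3 and 0.339, 0.322 and 0.505 in EWS-OCT-4 libraries 1, 2 and 3, so every EWS-OCT-4 library had the lower ratio. The change was 2.36-fold (log2 -1.24, exact permutation test, 2-sided, p = 0.1). With 3 libraries against 3 this test cannot go below 0.1, and adjusted over the 5 gene pairs compared in this way p was 0.125. Such a ratio compares tags of different genes, so only its change between libraries is read here.

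The co-chaperones of HSP90 among the 46 genes were higher with Hsp90ab1. Stip1 encodes HOP, the adaptor that passes clients from HSP70 to HSP90, and rose from 255, 239 and 279 to 460.0, 460.5 and 574 CPM, 1.93-fold (log2 0.95, SE 0.13, adjusted p = 0.0001). Ahsa1, whose product AHA1 stimulates the HSP90 ATPase, went from 136, 146 and 158 to 179, 185 and 224 CPM, 1.34-fold (log2 0.42, adjusted p = 0.0146). Its libraries did not overlap, yet the call was lost without EGFP replicate 1 (adjusted p = 0.0713) or EGFP replicate 2 (0.0516). In the last 400 bases of the Ahsa1 transcript 50.7% of 50-base words also occur in the annotated gene Gm49207, so its tags are uncertain. Summed over the 4 genes, tags ran from 11069 to 15043 CPM in the EGFP line and from 17662 to 21177 CPM in the EWS-OCT-4 line. Within that sum Hsp90ab1 rose from a mean of 6347 to 13057 CPM, while Hsp90aa1 had means of 5747 and 5108 CPM.

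Within the HSP70 group Hspa1a, Hspa1b, Bag3, Hspa4l and Hsph1 were lower in the EWS-OCT-4 line. The stress-inducible HSP70 genes were among them, while the constantly expressed Hspa8 and Hspa4 did not pass the test, nor did Hspa2 and Hspa14. Hspa1b and Hspa1a are neighbouring genes for near-identical inducible HSP70 proteins. Hspa1b (chromosome 17, 34956436 to 34959238, minus strand) stood at 29.3, 32.0 and 41.4 CPM in the EGFP libraries and 5.07, 4.53 and 2.94 CPM in the EWS-OCT-4 libraries, 8.21-fold lower (log2 -3.04, SE 0.25, adjusted p = 3.1e-06). Hspa1a (chromosome 17, 34969190 to 34972156, minus strand) was at 21.3, 19.9 and 23.2 CPM and 3.97, 3.69 and 2.35 CPM, 6.43-fold lower (log2 -2.68, SE 0.25, adjusted p = 6.7e-06). For both genes the lowest EGFP library lay well above the highest EWS-OCT-4 library. No 50-base word of the last 400 bases of either transcript occurs in another annotated transcript, so at their 3′ ends, which this assay reads, the pair can be told apart. The Hspa1a to Hspa1b ratio was 0.725, 0.621 and 0.559 in EGFP libraries 1 to 3, against 0.782, 0.816 and 0.800 in EWS-OCT-4 libraries 1 to 3 (log2 change 0.34, exact permutation p = 0.1, the smallest possible).

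Bag3, a nucleotide exchange factor that couples HSP70 to small heat shock proteins and autophagy (chromosome 7, 128523616 to 128546981, plus strand), was at 169.7, 189 and 174 CPM in the EGFP line and 35.7, 31.5 and 24.0 CPM in the EWS-OCT-4 line, 5.85-fold lower (log2 -2.55, SE 0.16, adjusted p = 5.9e-07). The lines were far apart and EWS-OCT-4 library 3 was the lowest of all. Hspa4l, an HSP110 relative best known from testis, had 12.2, 9.89 and 16.8 against 5.26, 3.23 and 4.03 CPM (3.10-fold lower, log2 -1.63, SE 0.29, adjusted p = 0.00066). Hsph1, the inducible HSP110 exchange factor, fell by 0.80 on the log2 scale, from 264 ± 48.5 to 152 ± 22.6 CPM (adjusted p = 0.0014).

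The other HSP70 and HSP110 genes did not pass. Hspa8 encodes HSC70, the housekeeping HSP70, and was at 651, 656 and 739.7 CPM in the EGFP line and 646, 647 and 606 CPM in the EWS-OCT-4 line. The values of the lines lay next to each other without overlapping, and the difference of -0.11 did not pass (SE 0.11, adjusted p = 0.396). Its tags are uncertain, because 76.6% of 50-base words in its last 400 bases also occur in transcripts of 11 other annotated genes, among them Gm15459 and Gm8355. Hspa4, the constitutive HSP110 relative, stood at 762 ± 19.8 and 809 ± 56.9 CPM (log2 0.09, adjusted p = 0.497). Hspa14, a ribosome-associated HSP70, was at 142 ± 18.7 and 119.7 ± 21.5 CPM (log2 -0.25, adjusted p = 0.188). Hspa2, an HSP70 of spermatocytes that other tissues express at lower levels, had 17.5, 16.0 and 10.9 CPM and 11.6, 11.8 and 7.22 CPM. Those ranges overlap, because EGFP library 3 lay below both EWS-OCT-4 libraries 1 and 2, and the difference did not pass (log2 -0.53, SE 0.26, adjusted p = 0.0987). Without EGFP replicate 3 it was -0.71 and passed (adjusted p = 0.038). The Hspa4l to Hspa4 ratio was 3.27-fold lower with no overlap between the lines (log2 -1.71, exact permutation p = 0.1), while the Hspa2 to Hspa8 ratio overlapped (log2 -0.43, exact permutation p = 0.3).

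**Figure D2:**
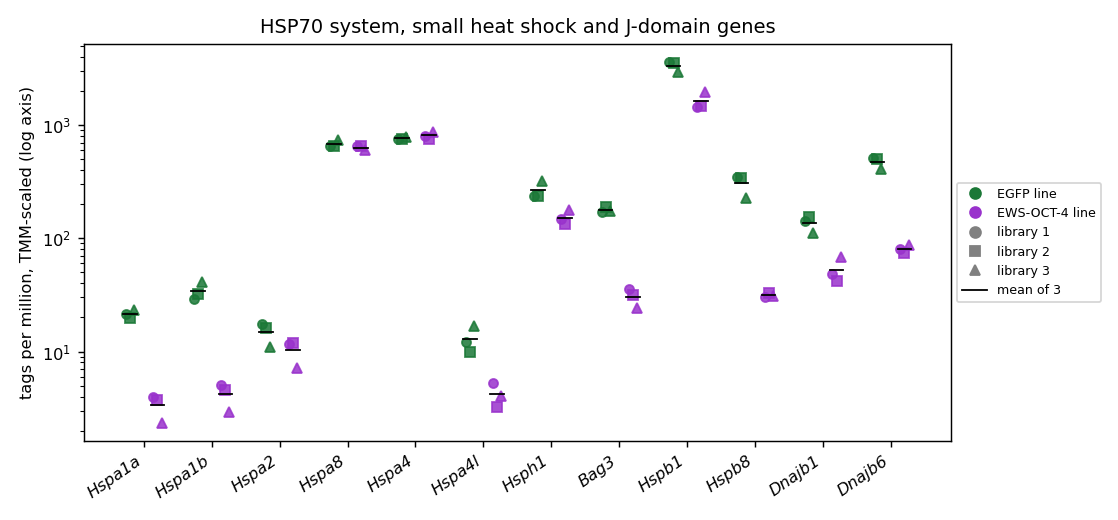
Level in each library (vertical axis, TMM-scaled CPM on a log axis) of 12 genes of the HSP70 system, the small heat shock proteins and the J-domain proteins. Green points are EGFP and purple points EWS-OCT-4 libraries, the symbol gives the library number and the bar the mean of 3; the lines are widely separated for Hspa1a, Hspa1b, Bag3, Hspb8 and Dnajb6 and lie side by side for Hspa8 and Hspa4.

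Both small heat shock protein genes, whose products hold unfolded proteins without using ATP, were lower. Hspb8 (chromosome 5, 116408491 to 116422864, minus strand), the partner of BAG3, had 348, 343 and 228 CPM in the EGFP libraries and 30.3, 33.2 and 31.2 CPM in the EWS-OCT-4 libraries. It showed the largest difference of the 46 genes, 9.71-fold lower (log2 -3.28, SE 0.18, adjusted p = 2.4e-07), and EGFP library 3 was the lowest of its line. Hspb1, which encodes HSP25, went from 3602, 3501 and 2955 to 1436, 1464 and 1958 CPM, 2.07-fold lower (log2 -1.05, SE 0.15, adjusted p = 0.00014). For Hspb1 library 3 lay nearest to the other line in both lines. In its last 400 bases 19.7% of 50-base words are shared with the pseudogene Hsp25-ps1.

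J-domain proteins choose clients for HSP70 and start its ATPase cycle. Dnajb6, a strong suppressor of aggregation (chromosome 5, 29735688 to 29818134, plus strand), fell from 514, 499 and 409 CPM to 79.8, 73.4 and 86.7 CPM, 5.92-fold (log2 -2.57, SE 0.14, adjusted p = 1.8e-07). Dnajb1, the inducible HSP40, fell from 141, 155 and 110.2 CPM to 48.4, 41.7 and 68.2 CPM, 2.56-fold (log2 -1.36, SE 0.20, adjusted p = 0.00018). In neither gene did the lines overlap. Dnajb4 had low levels, 11.9, 10.9 and 8.39 CPM against 3.41, 7.39 and 5.54 CPM, and its fall (log2 -0.93, SE 0.31, adjusted p = 0.0216) was lost without EGFP replicate 1 (adjusted p = 0.0765), EGFP replicate 2 (0.059) or EWS-OCT-4 replicate 1 (0.0745). The general HSP40 genes Dnaja1 and Dnaja2 fell by 0.92 and 0.70 on the log2 scale (adjusted p = 0.0001 and 0.00046), from 431 ± 1.75 to 228 ± 30.5 CPM and from 555 ± 17.5 to 342 ± 39.0 CPM. Dnajc7, a J-domain protein with TPR repeats that binds both HSP70 and HSP90, did not pass (154 ± 2.50 and 136 ± 24.5 CPM, log2 -0.18, adjusted p = 0.291). The sources used here do not say whether strand was used in counting, and Smu1 lies opposite the 3′ end of Dnaja1 and Cnp opposite that of Dnajc7. Tags of these pairs cannot be told apart without strand. Smu1 itself was counted at 200.4 ± 15.2 and 163 ± 29.3 CPM and Cnp at 5.78 ± 0.683 and 22.1 ± 0.391 CPM.

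HSF1 trimers bind heat shock elements, in which GAA and its inverted copy TTC alternate. RefSeq promoter windows (250 bases before to 50 after each annotated start, build GRCm38.p6) were matched to 39 of the 46 genes, with 49 windows in all. The genes without a window were Hsf1, Hsp90aa1, Hsp90ab1, Hspa8, Cct4, Hspa9 and Atf6. Searched on both strands with exact letters, a 3-unit element, GAA, TTC and GAA with any 2 bases between neighbours, occurred in 4 of the 39 genes (10.3%), against 0.662% of all 27025 genes with windows. The 2-unit forms GAANNTTC and TTCNNGAA, which each 3-unit match contains, occurred in 14 of the 39 genes (35.9%) against 17.0% of all genes. The elements of the 9 genes among these that passed as lower follow, with a 2-unit match left out where it lies inside a 3-unit one. Capitals mark the matched element, coordinates are those of the capitals, and each line reads along the gene's own strand.
Hspa1b (chr17:34959335-34959342): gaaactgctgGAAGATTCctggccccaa
Hspa1a (chr17:34972253-34972260): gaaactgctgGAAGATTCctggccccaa
Hspb1 (chr5:135887802-135887809): ttcaacaagaGAAGTTTCcagatggggg
Hspb1 (chr5:135887822-135887829): gatgggggcaGAACCTTCctggccccgc
Hspb8 (chr5:116422855-116422862): gaagccaggaGAAGTTTCtaggctcgcg
Bag3 (chr7:128523625-128523632): gatgggaccaGAAGTTTC
Dnaja1 (chr4:40722344-40722351): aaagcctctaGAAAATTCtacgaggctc
Dnajb4 (chr3:152193852-152193859): tcgttcgctgTTCTAGAAagtacagaga
Dnajb6 (chr5:29735852-29735864): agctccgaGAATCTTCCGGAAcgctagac
Hsph1 (chr5:149636288-149636300): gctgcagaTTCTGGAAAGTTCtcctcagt
Hsph1 (chr5:149636362-149636369): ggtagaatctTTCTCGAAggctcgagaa
The windows around the Hspa1a and Hspa1b elements are identical, and both elements lie at -104 to -97 from the start. Of the 4 genes with a 3-unit element Dnajb6 and Hsph1 passed as lower and Hspd1 and Hspe1 as higher (median log2 difference 0.02). Of the 14 genes with at least a 2-unit element 9 were lower, 3 higher and 2 did not pass (median -0.92). Of the 25 without one, 9 were lower, 7 higher and 9 did not pass (median -0.18). Among all tested genes 34.1% were lower and 33.3% higher, and the calls of other genes with these elements were not counted. Any link between an element and the difference was not tested. A match describes the letters only, and no match says only that these letters are not in the window.

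**Figure D3:**
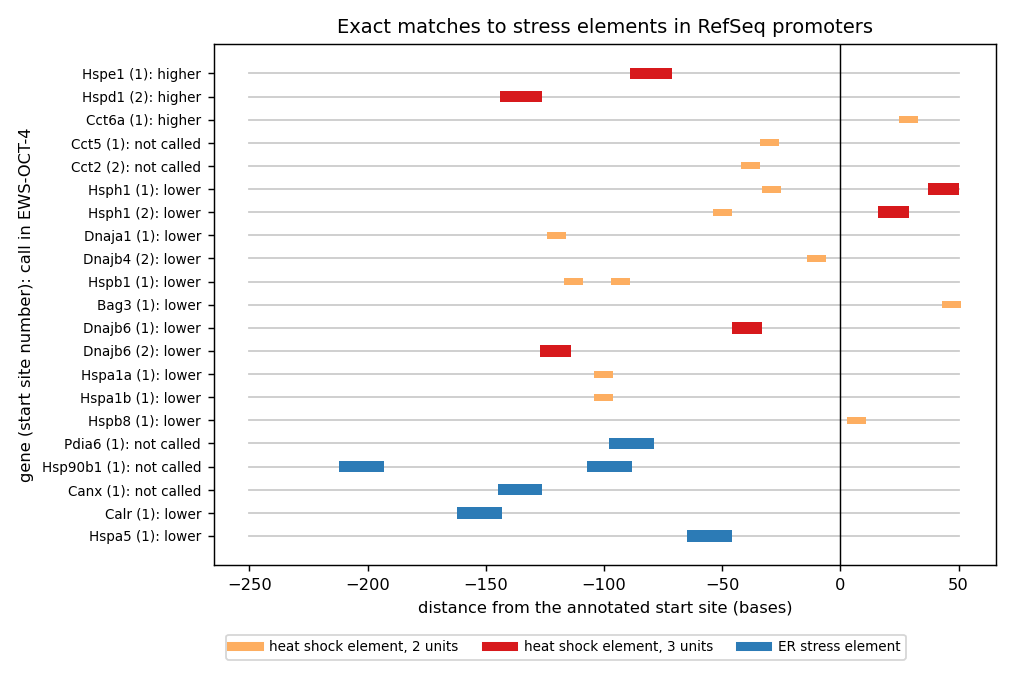
Position of exact matches (horizontal axis, bases from the annotated start site) in the RefSeq promoter windows that hold any, 1 row per gene and start site, with the call of the gene beside its name. Orange bars are 2-unit and red bars 3-unit heat shock elements (red covers the 2-unit matches within it) and blue bars ER stress elements, which occur in the ER genes alone among the 39 genes.

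The cytosolic chaperonin CCT, a ring of 8 different subunits that folds actin and tubulin, was higher for some subunits and lower for none. Of the 8 subunits 3 passed as higher, 37.5% against 33.3% of all tested genes. The share that passed in either direction, also 37.5%, was below the 67.4% of all tested genes. Cct7 (chromosome 6, 85451514 to 85468475, plus strand) rose from 609, 625 and 697 CPM in the EGFP libraries to 1147, 1183 and 1024 CPM in the EWS-OCT-4 libraries, 1.74-fold (log2 0.80, SE 0.11, adjusted p = 0.00014). Cct6a rose from 348, 346 and 406 to 588, 619.9 and 576 CPM, 1.62-fold (log2 0.70, SE 0.11, adjusted p = 0.00033). Cct6a is annotated in GENCODE M21 as a processed transcript. For both subunits all EWS-OCT-4 libraries exceeded all EGFP libraries. Tcp1, which encodes the alpha subunit, was at 297, 299 and 375 and 401, 383 and 480.4 CPM (log2 0.38, SE 0.14, adjusted p = 0.0319). Its call was lost without EGFP replicate 1 (adjusted p = 0.132), EGFP replicate 2 (0.125), EWS-OCT-4 replicate 1 (0.0502) or EWS-OCT-4 replicate 3 (0.0597) and with scaling by total counts (0.0613). Acat3 lies opposite the 3′ end of Tcp1 and moved the same way (261 ± 46.7 and 353 ± 45.6 CPM), and without strand the tags of the pair cannot be told apart.

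The other 5 subunits did not pass, with log2 differences of 0.33 for Cct5, 0.23 for Cct8, 0.17 for Cct4, 0.14 for Cct2 and 0.02 for Cct3, where Cct3 had -0.036 with scaling by total counts. Cct2 was at 401, 399.6 and 499 CPM and 533, 522 and 372 CPM and Cct4 at 297, 286 and 340.1 and 369, 373 and 294 CPM, where EWS-OCT-4 library 3 fell among or below the EGFP libraries while libraries 1 and 2 lay above them. Without EWS-OCT-4 replicate 3, Cct2 (0.29, adjusted p = 0.0474) and Cct4 (0.27, adjusted p = 0.0347) passed, and without EGFP replicate 3 so did Cct5 (0.41, adjusted p = 0.0454). Usp16 lies opposite the 3′ end of Cct8 and was counted at 82.4 ± 6.40 and 70.3 ± 3.07 CPM. With libraries 1 and 2 of each line alone 7 of the 8 subunits were higher, in a fit that called 5092 of all 13538 tested genes as higher. Summed over subunits, CCT tags ran from 3121 to 3702 CPM in the EGFP line and from 4327 to 4432 CPM in the EWS-OCT-4 line, without overlap.

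Prefoldin delivers nascent actin and tubulin to CCT. In a companion list of 9 prefoldin and CCT-assisting genes, 5 were higher (55.6%, against 33.3% of all tested genes), 1 lower (11.1%, against 34.1%) and 3 did not pass. Vbp1, a prefoldin subunit, rose from 19.0, 18.7 and 22.6 to 76.0, 70.1 and 68.3 CPM (3.55-fold, log2 1.83, adjusted p = 2.5e-06) and Pfdn4, another subunit, from 38.3, 42.9 and 29.5 to 61.8, 72.8 and 58.3 CPM (1.74-fold, adjusted p = 0.002). The gene that fell was Cct6b, a testis form of the zeta subunit, from 5.29 ± 1.39 to 0.906 ± 0.361 CPM (log2 -2.54, adjusted p = 0.00046), named after its value was seen.

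**Figure D4:**
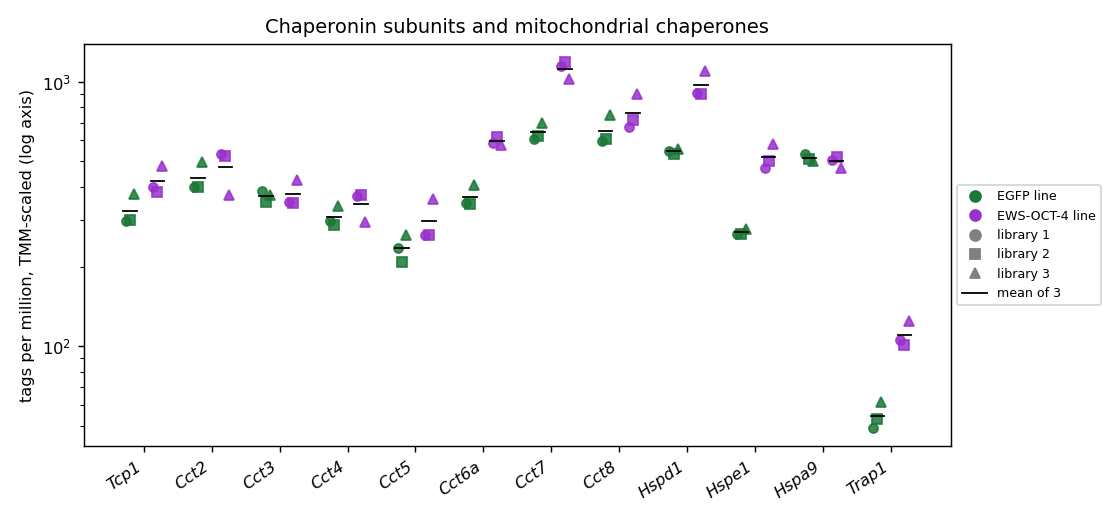
Level in each library (vertical axis, TMM-scaled CPM on a log axis) of the 8 CCT subunits and the 4 mitochondrial chaperones, drawn as in the plot of the HSP70 system. Cct6a, Cct7, Hspd1, Hspe1 and Trap1 are separated between the lines, whereas EWS-OCT-4 library 3 (triangle) falls back towards the EGFP line for Cct2 and Cct4.

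Mitochondrial chaperones were higher in 3 of 4 cases (75%, against 33.3% of all tested genes). Hspd1 and Hspe1 encode the HSP60 ring and its HSP10 lid and lie head to head (chromosome 1, 55077835 to 55088243, minus strand, and chromosome 1, 55088132 to 55091307, plus strand). Hspd1 rose from 548, 531 and 557 CPM to 908, 899.6 and 1095 CPM, 1.77-fold (log2 0.83, SE 0.12, adjusted p = 0.00013), and Hspe1 from 265, 267 and 277 CPM to 469.9, 502 and 581 CPM, 1.92-fold (log2 0.94, SE 0.12, adjusted p = 5.6e-05). In both, library 3 was the highest of the EWS-OCT-4 line and the lines did not overlap. The Hspd1 to Hspe1 ratio stayed within a narrow range, 2.07, 1.99 and 2.01 in EGFP libraries 1 to 3 against 1.93, 1.79 and 1.89 in EWS-OCT-4 libraries 1 to 3 (log2 change -0.11, exact permutation p = 0.1, adjusted p = 0.125). Tags of Hspe1 are uncertain, since 59.8% of 50-base words in its last 400 bases also occur in 5 other annotated genes, including the pseudogenes Hspe1-ps2 and Hspe1-ps3. Trap1, the mitochondrial HSP90, rose from 49.1, 53.2 and 61.4 to 106, 101 and 125 CPM, 2.03-fold (log2 1.02, SE 0.14, adjusted p = 0.00013). Dnase1 lies opposite its 3′ end and was higher too (means of 23.5 and 54.7 CPM), and without strand their tags cannot be told apart. Hspa9, which encodes mortalin, the HSP70 of the matrix and of protein import, was at 533, 509 and 501 CPM and 505, 521 and 473 CPM, overlapping, and did not pass (log2 -0.04, SE 0.10, adjusted p = 0.729).

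The stretch around the starts of Hspd1 and Hspe1 lies in promoter windows of both genes. It is shown from the Hspe1 side, chr1:55087898-55088147 on the plus strand of GRCm38.p6, as the 250 bases before the RefSeq start of Hspe1, because this pair held a 3-unit element and passed as higher. Capitals mark 2 overlapping 3-unit elements, the first 89 bases before the start.
Hspe1: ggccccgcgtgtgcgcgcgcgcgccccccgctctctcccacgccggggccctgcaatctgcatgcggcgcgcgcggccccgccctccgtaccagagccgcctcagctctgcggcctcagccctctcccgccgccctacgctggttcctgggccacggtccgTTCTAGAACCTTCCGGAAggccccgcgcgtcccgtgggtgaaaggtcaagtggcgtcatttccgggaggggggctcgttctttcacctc
A RefSeq window of Hspd1 on the opposite strand covers the whole stretch shown and holds the same elements.

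Other mitochondrial folding and protease genes were mixed. Of 15 companion genes 5 were higher (33.3%, the share over all tested genes), 3 lower (20.0%, against 34.1%) and 7 did not pass, so that 53.3% passed against 67.4% of all tested genes. The protease subunit gene Spg7 rose from 31.6, 32.4 and 34.7 to 118, 117 and 129.6 CPM (3.69-fold, log2 1.89, adjusted p = 8e-07) and Dnajc15, a J-domain protein of the import motor, from 7.71 ± 0.767 to 12.7 ± 2.55 CPM (adjusted p = 0.0184, lost without EGFP replicate 1 at 0.0699 and without EWS-OCT-4 replicate 3 at 0.0543). Clpx, the unfoldase of the CLPXP protease, fell from 47.5, 47.7 and 29.8 to 11.6, 16.5 and 8.06 CPM (3.45-fold, log2 -1.79, adjusted p = 0.00025), and Grpel2, an exchange factor for mortalin, from 58.1 ± 5.64 to 31.4 ± 2.64 CPM (1.85-fold, adjusted p = 0.00035). The count of higher genes in this list was 2 without EGFP replicate 1, 3 without EWS-OCT-4 replicate 1 or EWS-OCT-4 replicate 2, and 8 in libraries 1 and 2 of each line alone. Over all genes that last fit called 5092 of 13538 as higher.

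In the ER, the main HSP70 and the lectin chaperone calreticulin were lower, while the ER form of HSP90 did not differ detectably. Hspa5 encodes BiP, the HSP70 of the ER lumen (chromosome 2, 34771970 to 34777547, plus strand). It stood at 965, 1025 and 1088 CPM in the EGFP libraries and 537, 508 and 727 CPM in the EWS-OCT-4 libraries, 1.74-fold lower with no overlap (log2 -0.80, SE 0.15, adjusted p = 0.00081), and EWS-OCT-4 library 3 was nearest to the EGFP line. Calr, the soluble lectin chaperone, was at 1044, 1013 and 869.6 and 560.0, 600.0 and 604 CPM, 1.66-fold lower (log2 -0.73, SE 0.11, adjusted p = 0.00026). Hsp90b1, which encodes GRP94, had 406, 433 and 478 CPM and 462, 458 and 376 CPM, with EWS-OCT-4 library 3 the lowest and EGFP library 3 the highest of the 6. Its difference was -0.02 (SE 0.12, adjusted p = 0.881), but 0.15 in libraries 1 and 2 alone (adjusted p = 0.0238). Dnajb9, an ER J-domain protein that restrains IRE1, had 19.8, 20.1 and 9.30 CPM and 7.29, 4.89 and 2.02 CPM (3.48-fold lower, log2 -1.80, SE 0.44, adjusted p = 0.0044). Library 3 was the lowest of its line in both lines for Dnajb9, and the gap between the lines was narrow.

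Calnexin and the disulfide isomerases were mixed. Canx, the membrane-bound partner of calreticulin, was at 449 ± 28.0 and 391 ± 32.9 CPM and did not pass (log2 -0.20, adjusted p = 0.147), although it passed without EWS-OCT-4 replicate 3 (-0.27, adjusted p = 0.0255). Pdia3, the isomerase that works with both lectins, fell by 0.59 on the log2 scale, from 236 ± 14.7 to 157 ± 11.9 CPM (adjusted p = 0.0012). Pdia4, an isomerase of the BiP complex, rose from 43.7, 42.4 and 42.1 to 61.9, 65.7 and 86.1 CPM, 1.67-fold (log2 0.74, SE 0.16, adjusted p = 0.0018), and was the only ER gene among the 46 that passed as higher. Pdia6, another BiP partner, was at 215, 220.2 and 293 and 299, 319 and 242 CPM, overlapping, and did not pass (log2 0.24, adjusted p = 0.198). It passed without EGFP replicate 3 (0.39, adjusted p = 0.0419) or EWS-OCT-4 replicate 3 (0.35, adjusted p = 0.049). Opposite the 3′ ends of Hsp90b1 and Pdia6 lie 1810014B01Rik and Atp6v1c2, which were counted at no more than 3.54 ± 0.413 CPM in either line. Summed over the 8 genes, ER chaperone tags ran from 3405 to 3448 CPM in the EGFP line and from 2453 to 2634 CPM in the EWS-OCT-4 line.

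The 3 genes of the unfolded protein response among the 46 were all lower, as were 34.1% of all tested genes. Xbp1, whose mRNA is spliced by IRE1 to make the active transcription factor (chromosome 11, 5520659 to 5525893, plus strand), was at 81.7, 77.7 and 78.9 CPM in the EGFP libraries and 35.5, 43.3 and 30.6 CPM in the EWS-OCT-4 libraries, 2.18-fold lower (log2 -1.12, SE 0.15, adjusted p = 0.00011). Tags at the 3′ end do not tell the spliced from the unspliced form. Atf6, the sensor that is cleaved into a transcription factor, had 47.3, 59.2 and 33.2 and 26.6, 26.7 and 22.4 CPM, 1.85-fold lower (log2 -0.88, SE 0.21, adjusted p = 0.0038), with wide scatter in the EGFP line. Ern1, which encodes IRE1-alpha, was close to the detection floor, with only 28, 19 and 23 counts in EGFP libraries 1, 2 and 3 and 3, 2 and 6 in EWS-OCT-4 libraries 1, 2 and 3 (log2 -2.29, SE 0.56, adjusted p = 0.0045). In all 3 genes every EWS-OCT-4 library lay below every EGFP library, which also held for 36.7% of all tested genes. The PERK gene Eif2ak3, a companion gene named after its value was seen, was lower as well, at 63.5, 68.4 and 37.7 CPM against 12.2, 13.5 and 9.07 CPM (4.89-fold, log2 -2.29, adjusted p = 2.4e-05). Other stress genes of its list, also named after their values were seen, went otherwise. Atf6b, a relative of Atf6, did not pass (log2 -0.04, adjusted p = 0.762), and Herpud1 was higher (2.21-fold, adjusted p = 0.00017). Of the 39 genes of that list tested, 20 were lower (51.3%, against 34.1% of all tested genes) and 7 higher (17.9%, against 33.3%).

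**Figure D5:**
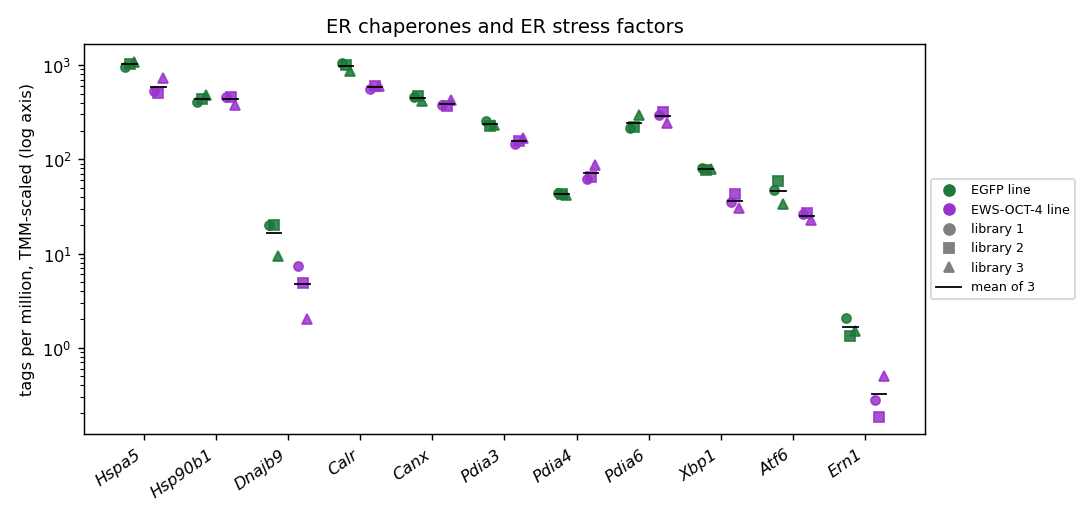
Level in each library (vertical axis, TMM-scaled CPM on a log axis) of 8 ER chaperone and isomerase genes and 3 ER stress genes, drawn as in the plot of the HSP70 system. Hspa5, Calr, Xbp1, Atf6 and Ern1 are lower in every EWS-OCT-4 library, Pdia4 is higher, and Hsp90b1 and Pdia6 overlap.

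ATF6 and XBP1 act through the ER stress element, in which CCAAT and CCACG are spaced by 9 bases. This form, with any 9 bases between, searched on both strands, occurred in 5 of the 39 genes with RefSeq windows, Hspa5, Hsp90b1, Calr, Canx and Pdia6 (12.8%), and in 0.137% of all 27025 genes. All 5 belong to the 8 ER chaperone and isomerase genes. The other forms searched, ATTGG and CCACG with any base between and TGACGTGG, had no exact match in the 39 genes. For Hspa5 the 250 bases before the start are shown (chr2:34771840-34772089, plus strand, GRCm38.p6), with the element in capitals 65 bases before the start, and for the others the element with 5 bases on each side along the gene's strand.
Hspa5: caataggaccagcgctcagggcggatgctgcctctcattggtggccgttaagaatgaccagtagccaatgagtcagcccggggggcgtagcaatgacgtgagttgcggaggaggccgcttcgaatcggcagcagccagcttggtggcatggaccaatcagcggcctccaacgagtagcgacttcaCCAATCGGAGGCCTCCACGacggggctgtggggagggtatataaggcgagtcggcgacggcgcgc
Hsp90b1 (chr10:86705638-86705656): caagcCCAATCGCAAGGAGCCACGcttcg
Hsp90b1 (chr10:86705533-86705551): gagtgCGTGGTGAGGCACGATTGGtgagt
Calr (chr8:84847075-84847093): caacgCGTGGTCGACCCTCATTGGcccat
Canx (chr11:50325800-50325818): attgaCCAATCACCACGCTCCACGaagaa
Pdia6 (chr12:17266491-17266509): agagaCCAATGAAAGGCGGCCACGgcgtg
These 5 genes were not uniform: Hspa5 and Calr passed as lower, Canx, Hsp90b1 and Pdia6 did not pass, and their log2 differences ran from -0.80 to 0.24. Of the ER genes with a window and no match, Dnajb9, Pdia3, Xbp1 and Ern1 were lower and Pdia4 was higher.

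The wider set of ER folding, quality control and stress genes held both directions. Of 40 companion genes 39 were tested, and 20 were lower (51.3%, against 34.1% of all tested genes), 7 higher (17.9%, against 33.3%) and 12 did not pass (median log2 difference -0.47). Pdia2, the gene left out, had no count in any library. The largest fall among genes averaging 10 CPM or more was in Creb3, an ER-anchored transcription factor, from 285, 285 and 192 CPM to 17.9, 16.3 and 18.6 CPM (14.5-fold, log2 -3.85, SE 0.19, adjusted p = 1e-07). Serpinh1, the collagen chaperone HSP47, fell from 124, 122 and 109 to 16.7, 19.0 and 10.8 CPM (7.64-fold, log2 -2.93, adjusted p = 1e-06). Against that direction, the largest rises among genes averaging 10 CPM or more were in Mbtps1 and Sdf2l1. Mbtps1, the protease that starts ATF6 cleavage, rose from 146, 164 and 159 to 492, 504 and 488 CPM (3.16-fold, log2 1.66, adjusted p = 6.7e-07). Sdf2l1, a partner of BiP, rose from 21.9, 17.0 and 18.2 to 63.2, 62.0 and 54.0 CPM (3.14-fold, adjusted p = 8.9e-06). In each of these 4 genes the lines did not overlap, which was a condition for naming them. Below that average, Clgn and Fkbp10 rose more, from means of 0.434 to 14.0 CPM (31.3-fold, adjusted p = 4.2e-05) and of 1.31 to 17.4 CPM (13.2-fold, adjusted p = 8.5e-07).

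Co-chaperones of the cytosol outside the 46 genes were split. Of 30 companion genes 29 were tested, and 11 were higher (37.9%, against 33.3% of all tested genes), 6 lower (20.7%, against 34.1%) and 12 did not pass (median log2 difference 0.06). The share that passed, 58.6%, was below the 67.4% of all tested genes. Among those averaging 10 CPM or more the largest rises were in Fkbp5 and Fkbp4, immunophilins of steroid receptor complexes. Fkbp5 went from 27.1, 26.7 and 37.3 to 111, 120.2 and 69.2 CPM (3.29-fold, log2 1.72, adjusted p = 8e-05). Fkbp4 went from 189, 175 and 243 to 536, 554 and 714 CPM (2.97-fold, log2 1.57, adjusted p = 1.7e-05). The largest falls were in Cryab, a small heat shock protein, from 105, 111 and 59.0 to 14.0, 7.94 and 5.96 CPM (9.88-fold, log2 -3.30, adjusted p = 1.4e-05), and in Dnajb2, a J-domain protein best known from neurons, from 25.4, 27.6 and 33.9 to 5.07, 7.39 and 10.1 CPM (3.84-fold, adjusted p = 8.1e-05). For all 4 the libraries of the lines stayed apart, which was a condition for naming them. Without EWS-OCT-4 replicate 3, 10 genes of this list were lower rather than 6.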

How the data were processed

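The authors deposited raw counts of 3′ tags per gene symbol, 1 file per library, from 500 ng of total RNA and a Lexogen QuantSeq kit, per the labels' protocols. Bowtie2, edgeR and mm10 are named in the submitters' processing notes; which tool counted the tags, with what annotation and whether by strand, is not stated in those sources. Each file had 23282 lines; 35 symbols on 79 lines were summed, none a chaperone or companion gene. Samples were grouped by title.

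Counts were filtered (filterByExpr, minimum count 10, minimum total 15), scaled by TMM (factors 0.971 to 1.03) and tested by the robust quasi-likelihood F test of edgeR 4.0.16 in R 4.3.3, 2-sided, with Benjamini-Hochberg adjustment over 13467 genes at 0.05. CPM were computed over the counts of tested genes, after TMM. The SE is the log2 difference divided by the square root of F. The biological coefficient of variation was 19.3%. On simulated data (13238 genes, 100 changed 2-fold and 100 changed 4-fold) 56.6% and 88.9% were recovered, with 7.10% false calls. Far fewer genes were changed there than the 67.4% that passed in the data, so these rates may not hold for the data.

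Genes given library by library were the called genes with the largest difference in each role group (up to 4 in groups of 8 or 9, 3 in groups of 4 to 6, all in smaller ones), all regulators, the 3 paralog pairs Hspa1a and Hspa1b, Hsp90aa1 and Hsp90ab1, Hspa2 and Hspa8, and Hspa5 and Hsp90b1. Cct2, Cct4, Hspa9, Pdia6 and the companion gene Eif2ak3 were added after their values were seen. So, in less detail, were the companion genes Cct6b, Atf6b, Herpud1, Clgn and Fkbp10. The other companion genes named were the 2 largest rises and 2 largest falls per list among called genes without overlap and with at least 10 CPM on average. Members and lists were chosen with earlier results of these data known. Alternatives were leaving out libraries, a replicate block, other scalings (DESeq2 1.42.0 size factors, total counts, Rn45s left out) and filters, limma-voom (limma 3.58.1), DESeq2, a test against a 1.5-fold change and an adjusted p of 0.01. Positions come from GENCODE M21 (GRCm38, the assembly of mm10) and promoters from RefSeq (GRCm38.p6).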

Additional observations from a re-analysis of the deposited data

How the results depend on the processing

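Over 17 alternative settings and the 46 genes, 720 of 779 values kept both their sign and their side of the threshold, and 33 genes did so in all 6 fits that left out 1 library. DESeq2, limma-voom, DESeq2 size factors, no filter and leaving out Rn45s changed none of the 46 calls, and a mean of at least 10 CPM, which kept 43 of the genes, changed no call among those. Sign changes were confined to genes that had not passed: Hsp90aa1 (-0.44 to 0.0051 with 1 library left out), Hspa8 (0.0035), Hspa14 (0.022), Hsp90b1 (0.15) and Cct3 (-0.051) with only libraries 1 and 2, Cct3 also with 1 library left out (-0.075 to 0.071) and with total counts (-0.036), Hsp90b1 also with 1 library left out (-0.087 to 0.071) and with a mean of at least 10 CPM (0.022), and Hspa9 with that filter (0.0020). Counts of higher and lower genes ran from 8 to 13 and from 19 to 22 with 1 library left out, and were 17 higher with libraries 1 and 2 alone and 6 and 13 against a 1.5-fold change; beyond fewer libraries or a stricter question, the cause was not tested. By role with 1 library left out, higher heat shock factors ran from 0 to 1, lower HSP90 genes from 0 to 1 and higher ER chaperones from 1 to 2. With libraries 1 and 2 alone there was 1 lower HSP90 gene, and 7 CCT and 3 ER genes were higher. Over all genes that fit gave 5092 higher and 5148 lower of 13538 tested. Against a 1.5-fold change 0 heat shock factors, 1 CCT and 0 ER genes were higher and 3 J-domain and 1 ER gene lower; at an adjusted p of 0.01, 0 heat shock factors were higher. In the companion lists with 1 library left out, lower cytosolic genes ran from 6 to 10, lower prefoldin genes from 1 to 2 and higher mitochondrial genes from 2 to 5. Libraries 1 and 2 alone gave 10 lower cytosolic, 2 lower prefoldin, 8 higher mitochondrial and 11 higher ER genes. Lower prefoldin genes were 2 with limma-voom or DESeq2 and 0 with a mean of at least 10 CPM. Against a 1.5-fold change 1 prefoldin and 1 mitochondrial gene were higher, and at an adjusted p of 0.01, 2 mitochondrial genes. Of 238 values of the 14 companion genes named by rule, 233 kept sign and call. The 5 ratios between gene pairs kept their sign in every setting tried. A 2-unit search gave 14 genes with a heat shock element in place of 4.

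Numbers 1 and 2 gave no pairing, while library 3 stood apart in both lines. Same-numbered libraries deviated together with correlations of 0.05, 0.07 and 0.16. EWS-OCT-4 library 1 followed EGFP library 2 (0.10) more than EGFP library 1. A library 3 against a library 1 or 2 of the other line gave -0.13 to -0.10. Deviations within a line cancel, so these values are not independent, and an effect shared by the libraries numbered 3 was not tested. With a replicate block 12 of the 46 genes were higher and 21 lower, adding Cct5 and Hspa2 (adjusted p = 0.0348 and 0.0435), and 2 prefoldin genes were lower. Low counts limit Ern1, Hspa1a, Hspa1b, Hspa4l, Dnajb4 and Dnajb9.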
